A study of Mus musculus with 18 samples.

Results

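CpG methylation was followed at 574 tiles of the mouse genome, each 1 kb long, that gained methylation in mammary stem cells during pregnancy. They were chosen from 73632 tiles that held at least 3 CpGs with 5 or more reads in every one of 18 libraries on chromosomes 1 to 19. A tile was kept where the lowest of 3 pregnant stem libraries lay at least 10 percentage points above the higher of 2 virgin stem libraries, which 0.78% of tiles did. The level of a tile is its methylated reads as a percentage of all its reads. The virgin and pregnant stem levels therefore chose the tiles and are given below as a description, without a test. The retired stem library and all 12 progenitor and mature libraries took no part in the choice.

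The libraries came from the mammary epithelium of C57BL/6 female mice, with no transgene or treatment in the labels. Virgin mice were sampled at week 3 and week 9, pregnant mice on days 10, 16 and 19, and retired breeders at 1 stage. Each stage gave 1 library of cells labelled as stem, 1 as progenitor and 1 as mature. Each cell type thus had 2 virgin, 3 pregnant and 1 retired library, and different stages served as replicates of a state. The labels do not say how many animals gave a library or whether libraries came from separate animals, so the p-values measure the spread between these libraries.

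Methylation of cytosine in CpG pairs is copied by maintenance enzymes when a cell divides, so a level set in a stem cell can be passed to its descendants. CpG-rich gene starts are usually unmethylated, while most other CpGs are methylated in most cells, and middle levels often mark regulatory DNA that differs between cell types. In the mammary gland, stem cells lie in the basal layer, luminal progenitors and mature luminal cells line the ducts, and pregnancy expands the luminal compartment into milk-producing alveoli. A level measured in a pool of cells is a mean: a change in every cell and a change in the mixture of cells cannot be told apart here.

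Reads over CpGs ran from 17513287 to 117922522 per library, with a median of 10 to 70 reads per CpG. The 3 retired libraries had a median of 10 to 13 and the day 16 libraries 11 to 18. A chosen tile held a median of 163 reads per library and never fewer than 15. The labelled cell types could not be checked by their markers: the files hold no expression, and of the marker genes only Gata3 and Kit (luminal) and Kdr (endothelial) could be placed on the files' genome, while 0 of 5 basal, 0 of 4 fibroblast and 0 of 4 blood genes were. The week 9 virgin mature library stood apart from the week 3 virgin mature library. In the 2199 tiles that the same rule turned round keeps (2.99%, losing methylation in pregnant stem cells), its level was nearer the pregnant than the virgin stem mean at 77.5% of tiles, against 30.5% for week 3 mature. Day 10 mature was next, at 56.4%, and over all tiles week 9 mature was nearer at 52.0%. The 2 virgin mature libraries also differ in age, and what sets week 9 apart was not tested. Whether this library matches its label could not be checked from these files. Virgin mature means and the differences that use them thus rest on a library that stood apart and whose label is unchecked. The mature counts and medians are therefore also given without it.

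Gene starts were placed on the files' build, mm9, through the spacing of CpGs in RefSeq promoter sequences, and 1 chosen tile contained a placed start. The sequences of 3 promoter windows are shown because they lie in or beside chosen tiles and behaved differently. Each runs 5′ to 3′ from 250 bases before to 50 after the start, from RefSeq on GRCm38.p6, and capitals mark the CpGs measured in all 18 libraries. Spag16, which encodes a protein of the sperm tail axoneme, has its window inside the chosen tile chr1:69873001-69874000. The tile of Alpk3, a muscle alpha-kinase gene, begins 515 bases downstream of its start, and that of Zfhx3, a zinc finger homeobox factor, ends 544 bases upstream. All 3 genes are on the plus strand, and the windows are at chr1:69873294-69873593, chr7:88202236-88202535 and chr8:111238294-111238593 of mm9.
Spag16 promoter window: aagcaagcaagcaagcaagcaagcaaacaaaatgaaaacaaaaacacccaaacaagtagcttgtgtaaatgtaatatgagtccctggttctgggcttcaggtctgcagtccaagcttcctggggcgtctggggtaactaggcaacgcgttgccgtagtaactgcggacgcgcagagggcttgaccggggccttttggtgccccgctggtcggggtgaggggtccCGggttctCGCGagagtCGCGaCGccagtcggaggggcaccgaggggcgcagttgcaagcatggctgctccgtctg
Alpk3 promoter window: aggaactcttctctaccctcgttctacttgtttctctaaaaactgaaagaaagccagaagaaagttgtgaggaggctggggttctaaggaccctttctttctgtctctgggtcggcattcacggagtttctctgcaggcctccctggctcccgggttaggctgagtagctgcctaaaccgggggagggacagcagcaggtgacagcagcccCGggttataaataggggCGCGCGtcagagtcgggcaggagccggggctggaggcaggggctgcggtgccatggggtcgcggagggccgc
Zfhx3 promoter window: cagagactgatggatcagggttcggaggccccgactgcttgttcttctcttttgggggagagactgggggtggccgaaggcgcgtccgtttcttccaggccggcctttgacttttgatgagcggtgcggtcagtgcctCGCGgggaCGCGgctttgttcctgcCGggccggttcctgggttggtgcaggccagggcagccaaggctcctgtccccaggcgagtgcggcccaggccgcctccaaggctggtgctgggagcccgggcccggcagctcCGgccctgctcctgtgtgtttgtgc

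These windows contain 2, 4 and 6 copies of CCGG, the site of the enzyme MspI that fragments the DNA before sequencing. CCGG, which reads the same on both strands, occurs in 52.8% of the 32851 RefSeq promoter windows of this length. At Spag16 all 6 measured CpGs lie within 26 bases upstream of the start. Their pooled level in stem cells was 6.14% at week 3, 7.14% at week 9, 28.8%, 28.9% and 16.1% on days 10, 16 and 19 of pregnancy, and 16.4% in the retired library. All 3 pregnant libraries lay above both virgin libraries, and the retired library lay just within the pregnant range. These CpGs are among the 12 of the chosen tile, so the rule used them and their separation is no separate result. The progenitor and mature libraries ran from 2.21% in day 19 mature to 17.7% in day 10 progenitor. Day 10 progenitor and week 9 mature (16.3%) also lay within the pregnant stem range. At Alpk3 the 4 measured CpGs gave 46.9% at week 3, 39.8% at week 9, 65.5%, 53.8% and 61.6% on days 10, 16 and 19 of pregnancy, and 57.7% in the retired library, and again all 3 pregnant libraries lay above both virgin ones, with at least 26 reads per library. The progenitor and mature libraries at Alpk3 ran from 32.4% in day 19 mature to 77.8% in retired mature. Retired progenitor (76.9%) and day 16 progenitor (66.7%) were also above every pregnant stem library, so such levels were not particular to pregnant stem cells. At Zfhx3 the 6 measured CpGs were between 0% and 3.77% in every library. The tile upstream of it nevertheless went from 55.7% at week 3 and 55.5% at week 9 in virgin stem cells to 82.2%, 79.9% and 80.7% on days 10, 16 and 19 of pregnancy, with 85.1% in retired stem cells.

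**Figure D1:**
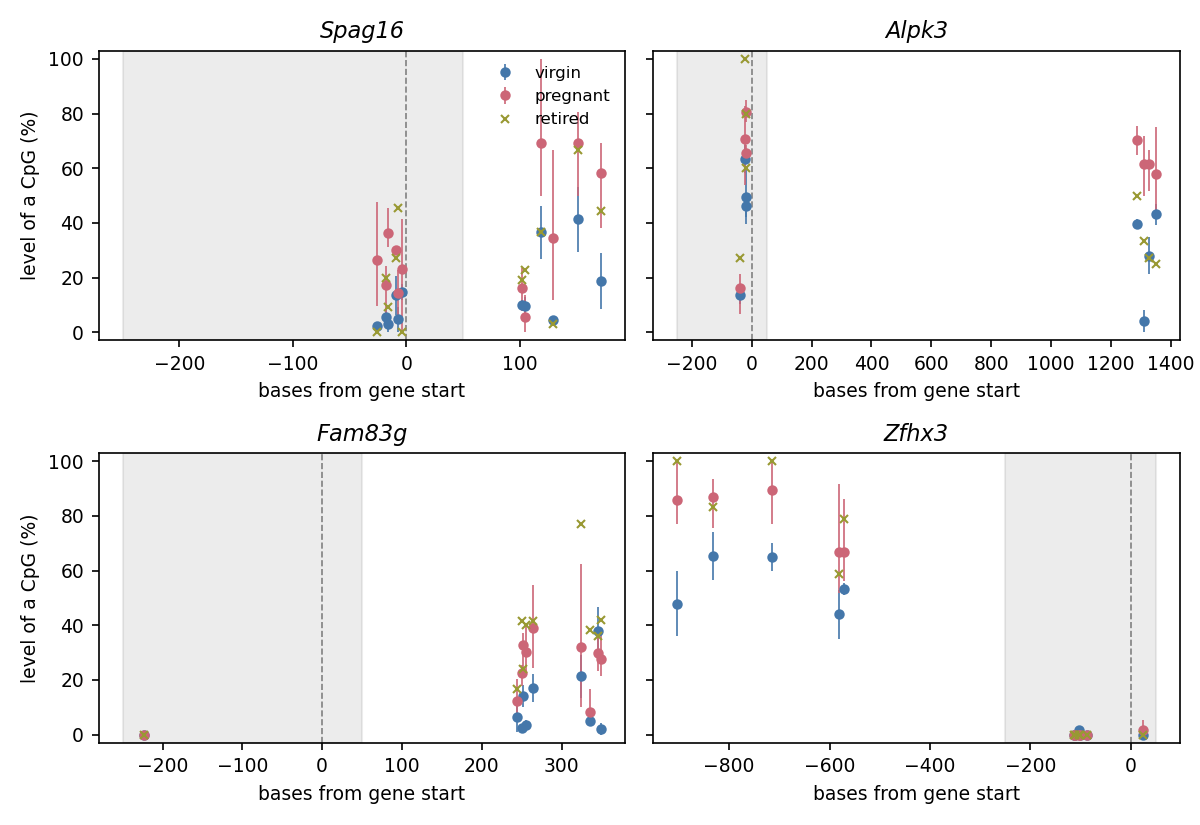
Methylation level of single CpGs (vertical axis, %) against distance in bases from the gene start (horizontal axis) at Spag16, Alpk3, Fam83g and Zfhx3 in stem libraries. Points are the mean of 2 virgin or 3 pregnant libraries with lines from the lowest to the highest, crosses are the 1 retired library, and the shaded band is the promoter window; CpGs beside the start are near 0 at Zfhx3 and above it at Spag16 and Alpk3.

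Over the 574 tiles the mean level was 48.5% in week 3 and 42.5% in week 9 virgin stem cells. It was 72.2%, 73.0% and 68.5% on days 10, 16 and 19 of pregnancy. The virgin libraries averaged 45.5% ± 4.27 (SD, n = 2) and the pregnant ones 71.2% ± 2.36 (SD, n = 3), a difference that the rule imposed. The median difference was 24.8 points (quartiles 19.5 and 30.5) and the largest 51.2, and at 122 tiles the gap between the groups was at least 20 points. Over all 73632 tiles the corresponding group means were 55.4% and 54.0%, so the mean over all tiles was not higher in pregnancy. Just inside the rule were chr13:48387001-48388000, chr11:120032001-120033000 and chr3:9159001-9160000, with gaps of 10.002 points each after rounding, and among the tiles just outside it were chr10:40241001-40242000 and chr5:115459001-115460000 with 9.98 and 9.96.

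The CpGs of the chosen tiles were also read singly. Of 2523 CpGs, 2425 (96.1%) had a higher mean in the pregnant than in the virgin stem libraries, and at 493 tiles (85.9%) every CpG did. The same reads chose the tiles, which held a median of 4 CpGs. High shares therefore follow in large part from the rule and are a description only. The stages were not equal: day 19 was the lowest of the pregnant libraries at 312 tiles, against 137 for day 10 and 125 for day 16. Week 3 was the higher of the virgin libraries at 406 tiles and week 9 at 168. Day 19 is also one of the libraries deposited in a 6-column format, as are all retired libraries, while the other stem libraries have 4 columns; the part of the format in these levels was not tested.

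**Figure D2:**
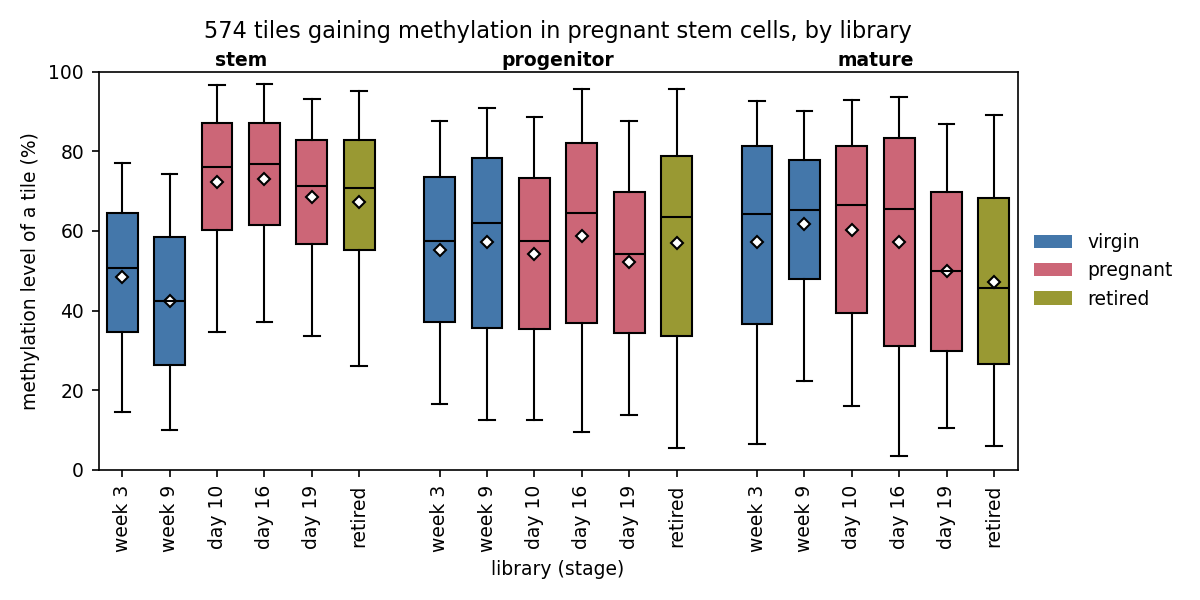
Methylation level of the 574 tiles (vertical axis, %) in each of 18 libraries (horizontal axis, stage within cell type). Boxes show the quartiles with the median, whiskers the 5th and 95th percentiles and diamonds the mean; virgin and pregnant stem libraries, which chose the tiles, average 42.5% to 48.5% and 68.5% to 73.0%, the retired stem library 67.1%, and the progenitor and mature libraries 47.2% to 61.8%.

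The 8 tiles with the widest gap had between 3 and 18 CpGs. The widest was at chr4:46611001-46612000, 2.8 kb downstream of the start of Coro2a, a coronin of the actin cytoskeleton. Its stem level was 33.3% at week 3 and 26.1% at week 9 in virgins, 68.97%, 79.7% and 70% on days 10, 16 and 19 of pregnancy and 77.9% in the retired library. No virgin value came near a pregnant one, and retired stem cells sat among the pregnant libraries. In progenitor cells the same tile had 29.7% at week 3 and 37.05% at week 9 in virgins and 20.97%, 14.1% and 36.4% on days 10, 16 and 19 of pregnancy, with 7.07% in the retired library. In mature cells it had 7.03% at week 3 and 56.7% at week 9 in virgins, 26.7%, 9.72% and 18.2% on days 10, 16 and 19 of pregnancy and 16.4% in the retired library. Of the mature libraries, week 9 stood well above the rest.

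A tile at chr4:148192001-148193000, 13.5 kb downstream of the start of Casz1, a zinc finger transcription factor, was similar. It went from 26.9% at week 3 and 11.02% at week 9 in virgin stem cells to 62.5%, 75.6% and 67.7% on days 10, 16 and 19 of pregnancy and 68.3% in retired ones, while the 12 progenitor and mature libraries ranged over 5.44% to 50.8%. The highest of those 12 was again week 9 mature, and the next was retired progenitor at 38.9%. At chr5:124499001-124500000 the stem values were 26.1% at week 3 and 10.5% at week 9 in virgins, 60.4%, 69.9% and 69.3% on days 10, 16 and 19 of pregnancy and 58.1% in the retired library, with 61.03% in week 9 mature and 2.48% to 30.7% in the other 11.

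Other tiles of this group were methylated elsewhere already. At chr11:96172001-96173000, 41.7 kb downstream of the start of Hoxb3os, a non-coding RNA of the Hoxb cluster, stem levels were 47.6% at week 3 and 42.4% at week 9 in virgins and 81.9%, 82.5% and 81.4% on days 10, 16 and 19 of pregnancy, with 86.7% in the retired library. The 12 other libraries lay at 57.8% to 84.8%, all above both virgin stem values. At chr7:38281001-38282000 virgin stem cells had 52.1% at week 3 and 57.5% at week 9 and pregnant ones 92.1%, 94.1% and 96.2% on days 10, 16 and 19. The virgin stem libraries were here below 11 of the 12 progenitor and mature libraries, which reached 97.7%, and only retired mature was lower, at 44.4%.

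The tile with the most CpGs in that group, 18 at chr2:163165001-163166000, was nearly unmethylated in virgin stem cells (6.5% at week 3 and 6.56% at week 9). It had 50.3%, 43.8% and 39.2% on days 10, 16 and 19 of pregnancy and stood at 19.2% in the retired library, with 211 to 1867 reads per library. Week 9 mature, at 24.5%, was the highest of the other 12, which began at 3.79%. The remaining CpG-dense tiles had smaller steps: 40 CpGs at chr5:144015001-144016000 went from 25.5% ± 0.263 (SD, n = 2) to 46.8% ± 7.82 (SD, n = 3). The 28 CpGs at chr16:17803001-17804000, 5.63 kb downstream of the start of Scarf2, a scavenger receptor gene, went from 8.39% ± 1.54 (SD, n = 2) to 25.2% ± 4.38 (SD, n = 3).

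Because the rule selects on these values, the same difference cannot be assumed for other libraries. The rule was applied without each stem library in turn, and the library left out was read at the tiles so chosen, its place given as a percentage of the step from the virgin mean (0) to the pregnant mean (100). Left-out day 10 was nearer the pregnant mean at 82.4% of 807 tiles, with a median place of 91.8%. Left-out day 16 was nearer it at 86.8% of 749 tiles, with a median of 98.1%. Left-out day 19 was nearer it at 58.6% of 1215 tiles, with a median of 59.5%. The tiles so chosen still have low virgin stem values, so a library without the gain need not lie at 0. The median places of the 12 progenitor and mature libraries ran from 9.57% to 60.4% at the tiles chosen without day 10, from 11.3% to 65.9% at those without day 16 and from 13.4% to 62.2% at those without day 19. Days 10 and 16 lay above all 12, and day 19 lay within their range.

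The left-out virgin libraries lay apart from each other. Left-out week 9 was nearer the virgin mean at 62.1% of 1154 tiles, with a median place of 26.5%. The median places of the 12 progenitor and mature libraries there ran from 19.2% to 77.0%, so week 9 lay within their range. Left-out week 3 was nearer the virgin mean at only 41.6% of 1886 tiles, and its median place of 57.5% lay past the middle of the step. At those tiles week 3 averaged 62.2%, week 9, then the only virgin library in the rule, 49.1% and the pregnant libraries 72.9%. Week 3 was nevertheless below the 12 progenitor and mature libraries, whose median places there were 59.2% to 82.3%.

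Retired stem cells, the one stem library outside the rule, resembled the pregnant libraries. Their mean over the 574 tiles was 67.1%, against 71.2% in pregnant and 45.5% in virgin stem libraries. They were nearer the pregnant mean at 461 tiles (80.3%), with a median place of 87.3% of the step, against 7.23% to 69.2% for the 12 progenitor and mature libraries. At 322 tiles they were at or above the lowest pregnant value, at 212 between the ranges and at 40 at or below the higher virgin value. Over all tiles the retired stem level was nearer the pregnant mean at 53.4%. In the 2199 losing tiles it was nearer at 71.8%, and at 974 of them (44.3%) it was at or below the highest pregnant value. The 12 progenitor and mature libraries were nearer the pregnant mean at 15.4% to 77.5% of the losing tiles. Week 9 virgin mature, the highest of them, exceeded retired stem, and day 10 mature was next at 56.4%. The retired stem library thus leaned to the pregnant side in both sets. It is 1 library with no replicate, and its depth (median 89.5 reads per chosen tile) was below that of the virgin stem libraries (200.5 and 258).

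**Figure D3:**
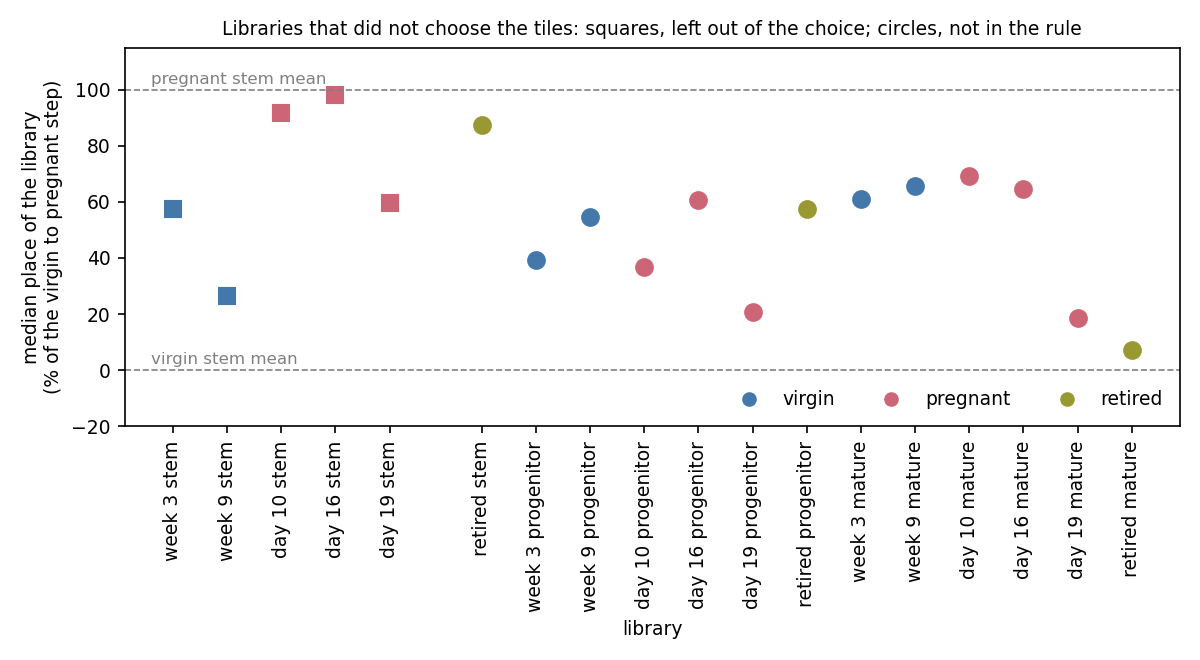
Median place of each library between the virgin (0) and pregnant (100) stem means (vertical axis, % of the step) by library (horizontal axis). Squares are stem libraries read at tiles chosen without them, circles libraries outside the rule read at the 574 tiles. Retired stem lies at 87.3% and retired mature lowest at 7.23%. Left-out days 10, 16 and 19 lie at 91.8%, 98.1% and 59.5%, and left-out virgin weeks 3 and 9 at 57.5% and 26.5%.

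Individual tiles departed from this in both directions. Retired stem cells exceeded the pregnant mean most at chr15:97240001-97241000, with 90.8% against 63.6%, 61.4% and 64.4% on days 10, 16 and 19 of pregnancy, and virgin values of 35.7% at week 3 and 9.16% at week 9. At chr11:95014001-95015000 they had 83.9% against 63.6%, 63.6% and 63.4% on days 10, 16 and 19. They fell furthest below at chr13:40812001-40813000, with 12% (95% Wilson interval 5.62% to 23.8%, counting error only) against 32.1% at week 3 and 31.2% at week 9 in virgins and 44.8%, 91.2% and 76.1% on days 10, 16 and 19 of pregnancy. At chr19:17409001-17410000, the tile with the largest step, the retired value of 58.7% lay within the virgin range (63.4% at week 3 and 24.8% at week 9) and below the pregnant values (92.1%, 97.3% and 96.4% on days 10, 16 and 19).

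None of the 574 tiles met the same rule in progenitor or mature cells when all libraries were used. Applied to the 5 virgin and pregnant libraries of each cell type, the rule kept 59 tiles in progenitor (0.0801%) and 12 in mature cells (0.0163%), and none of either list was among the 574. At shares this small, almost none of the 574 would be in either list even if the lists were unrelated to them. The rule turned round kept 16 tiles in progenitor (0.0217%) and 22 in mature cells (0.0299%), and 2 of these mature tiles, chr1:155593001-155594000 and chr14:56054001-56055000, were among the 574, with the difference opposite to that in stem cells. The counts of stem tiles, 574 gaining and 2199 losing, were both above those of the other cell types, as the plot of counts by cell type shows. These counts rested on few libraries. Without 1 library the rule kept 206 to 630 of the 73632 tiles in progenitor cells, 1 to 15 of them among the 574. The highest of both, 630 and 15, were without week 9. In mature cells it kept 31 to 1057, the most without week 3, with 0 to 12 among the 574. The 12 were without day 19, where it kept 104 tiles. Without week 9 virgin mature it kept 123 tiles, 5 of them among the 574, and turned round 374, 8 of them among the 574. With week 3 virgin mature left out, the rule turned round kept 332 tiles, 78 of them among the 574. That count rests on week 9, which stood apart and whose label is unchecked, as the only virgin mature library. Stem virgin libraries were sequenced to a median of 37 and 44 reads per CpG, and pregnant ones to 14 to 29; the corresponding ranges were 31 to 58 and 11 to 43 in progenitor and 59 to 70 and 18 to 39 in mature cells.

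**Figure D4:**
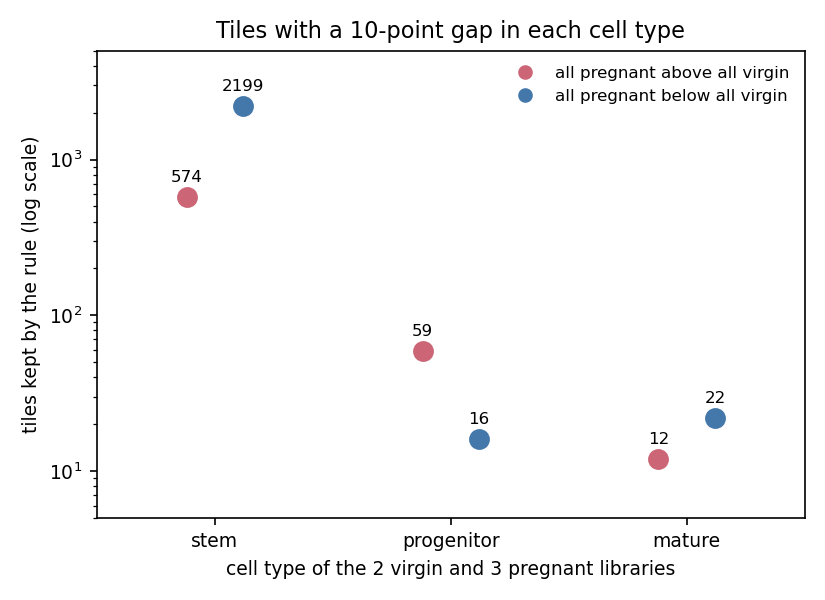
Number of tiles (vertical axis, log scale) that the 10-point rule kept in stem, progenitor and mature libraries (horizontal axis). Red points count tiles with all pregnant above all virgin libraries (574, 59 and 12) and blue points the reverse (2199, 16 and 22).

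At the 574 tiles, mean levels in progenitor cells were 56.2% ± 1.39 (SD, n = 2) in virgin, 55.01% ± 3.34 (SD, n = 3) in pregnant and 56.9% in retired libraries. The pregnant minus virgin difference had a median of -1.31 points over the tiles, with 235 higher and 339 lower, beside a median of 0 over all tiles. Over the 15600 tiles with a middle level (a mean of 20% to 80% in the 12 libraries) it was 0.942, and over the 430 chosen ones among them -1.30. The difference was tested in every one of the 73632 tiles with a quasi-binomial model on the 12 progenitor and mature libraries. No tile was called (0%), so none of the 574 was, and the smallest adjusted p among them was 1. At an unadjusted p under 0.05, 2 of the 574 were higher (0.348%, against 1.85% of all tiles) and 2 lower (0.348%, against 1.74%). Without overlap between the 2 virgin and 3 pregnant libraries, 25 were higher (4.36%, against 7.78% of all tiles) and 45 lower (7.84%, against 8.33%). Of the 430, 16 were higher without overlap (3.72%, against 8.93% of all middle-level tiles) and 31 lower (7.21%, against 5%), so the lower share was below that of all tiles but above that of tiles of like level. The median turned to 0.298 without day 19 progenitor and was -0.32 without week 9, -2.04 without week 3 and -3.21 without day 16 progenitor.

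In mature cells no tile passed the test either. Their means were 59.5% ± 3.32 (SD, n = 2) in virgin, 55.9% ± 5.27 (SD, n = 3) in pregnant and 47.2% in retired libraries. The pregnant minus virgin median was -3.23 points, with 167 tiles higher and 407 lower, beside -0.0221 over all tiles and -0.175 over the 15600 middle-level tiles. No tile was called (0%), and the smallest adjusted p among the 574 was 0.950 (0.0834 to 1.00 over the alternatives). At an unadjusted p under 0.05, 41 were lower (7.14%, against 2.69% of all tiles) and 8 higher (1.39%, against 2.05%). Of the 430 chosen tiles with a middle level, 33 were lower (7.67%, against 3.15% of all middle-level tiles). These counts changed with the test and the libraries. With limma on log2 of methylated over unmethylated reads, 12 were lower (2.09%, against 1.19%) and 1 higher (0.174%, against 2.18%). Without week 9 virgin mature, 29 were lower (5.05%, against 5.94%) and 26 higher (4.53%, against 1.99%), so the lower share no longer exceeded that of all tiles, also at a middle level (5.58%, against 7.17%). Without overlap, 44 were lower (7.67%, against 8.61%) and 16 higher (2.79%, against 6.54%). At a middle level 32 were lower without overlap (7.44%, against 6.88%) and 8 higher (1.86%, against 5.52%). Without week 9 virgin mature, 105 of the 574 were lower without overlap (18.3%, against 26.6%) and 74 higher (12.9%, against 13.6%). With week 3 virgin mature left out, 215 were lower without overlap (37.5%, against 18.2%) and 52 higher (9.06%, against 23.1%). The median depended on single libraries and was -1.03 without week 9 virgin mature and 0.0568 without day 19 mature, beside -5.20 without day 10 mature.

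Taking progenitor and mature cells together, the pregnant minus virgin median was -2.32 points (158 higher, 416 lower), and 0 tiles were called (0%). At an unadjusted p under 0.05, 6 were higher (1.05%, against 2.08%) and 25 lower (4.36%, against 2.39%). Here and for retired against virgin libraries the model had no stage term. The progenitor and mature libraries of a stage thus counted as separate replicates, which may make the p-values too small. Without week 9 virgin mature the median was -1.22, with 7 higher (1.22%, against 1.96%) and 12 lower (2.09%, against 3.65%), and with limma 0 were higher (0%, against 2.83%) and 8 lower (1.39%, against 1.12%). The median was -0.522 without day 19 mature and -1.43 without day 19 progenitor. For retired against virgin libraries it was -5.30 (177 higher, 397 lower), again with 0 calls (0%). Here 5 were higher (0.871%, against 3.54%) and 32 lower (5.57%, against 1.83%) at an unadjusted p under 0.05. That value came from 1 library per cell type: it was -10.7 without retired progenitor and 2.11 without retired mature, the shallowest library. Without retired mature 8 were lower (1.39%, against 1.29%), and without week 9 virgin mature the median was -3.73. With limma 58 were lower (10.1%, against 7.35%) and 16 higher (2.79%, against 7.80%).

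Progenitor against mature within stages gave -0.0879 (283 higher, 291 lower) and 0 calls (0%), with 8 higher (1.39%, against 3.52%) and 54 lower (9.41%, against 3.17%) at an unadjusted p under 0.05. The sign of this median was not stable: 11 of 18 alternatives kept it, and it was 1.03 without week 9, 0.987 without day 10 and -1.90 without the retired stage. Without week 9, 42 were lower (7.32%, against 3.57%) and 21 higher (3.66%, against 2.84%). With all 18 libraries in the fit 13 of the 574 passed that p in place of 62 (2.26%, against 6.05% of all tiles), and with limma 31 did (5.40%, against 4.73%). The fit of 18 includes the stem libraries that chose the tiles. Their spread at these tiles is not independent of the rule, so the lower count is not a check. Limma called 0 of the 574 in any of these tests.

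The tiles were of several kinds when read in the 12 progenitor and mature libraries. The mean of the 12 lay between the virgin and pregnant stem means at 452 tiles, below the virgin mean at 95 and above the pregnant mean at 27. It was nearer the virgin stem mean at 316 tiles and nearer the pregnant one at 258, a split made after the data were seen. Among the 316, median levels were 38.9% in virgin, 70.1% in pregnant and 64.3% in retired stem cells and 42.0% in the other 12 libraries. That pregnant stem cells lay above the rest here follows from the split and the rule. The retired stem library, which neither used, also lay above. Among the 258 they were 52.8%, 79.9% and 77.3% in stem cells and 72.3% in the others, and the low place of virgin stem cells follows likewise. All 12 libraries lay above both virgin stem values at 70 tiles and none did at 6.

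Single libraries differed within this picture. The share of the 574 tiles at which a library was nearer the pregnant stem mean ran from 27.2% in day 19 progenitor and 29.6% in both day 19 mature and retired mature to 67.8% in week 9 virgin mature. Among the 316 tiles, week 9 mature averaged 53.6% against 43.2% for week 3 mature. Among the 258 tiles these libraries averaged 71.8% and 74.2%, close to each other.

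**Figure D5:**
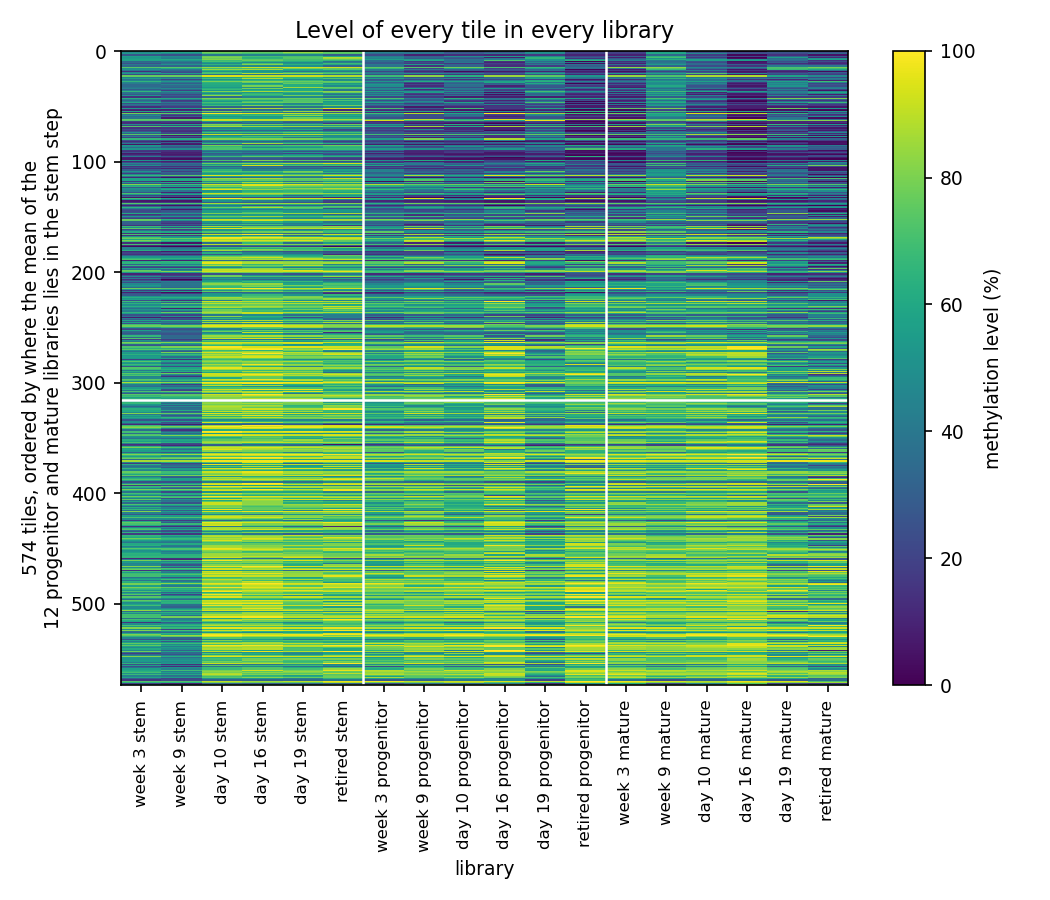
Methylation level (colour, 0% to 100%) of the 574 tiles (rows) in 18 libraries (columns, by cell type). Rows are ordered by the place of the mean of the 12 progenitor and mature libraries in the stem step, and the white horizontal line parts the 316 tiles nearer the virgin mean (top) from the 258 nearer the pregnant mean (bottom).

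Where all pregnant progenitor libraries were above both virgin ones, the largest difference was at chr5:36597001-36598000. Levels there were 30.3% at week 3 and 23.9% at week 9 and 35.6%, 58.8% and 37.5% on days 10, 16 and 19, and its stem values were 46.01% at week 3 and 38.4% at week 9 and 64.8%, 76.9% and 71.4% on days 10, 16 and 19. The other 4 largest differences in this direction, at chr17:31459001-31460000, chr11:55195001-55196000, chr4:100861001-100862000 and chr10:99163001-99164000, were of 16.5, 14.8, 13.3 and 12.1 points. In mature cells the largest difference was at chr6:127792001-127793000, with 53.5% at week 3 and 70.7% at week 9 and 73.6%, 81.8% and 74.3% on days 10, 16 and 19. Those at chr5:116312001-116313000, chr14:75592001-75593000, chr1:93604001-93605000 and chr10:83920001-83921000 were 10.9, 10.7, 10.4 and 8.89 points. None of these passed the adjusted test.

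The chosen tiles were mostly of middle level and poor in CpGs. In virgin stem cells 86.1% of them lay between 20% and 80%, as did 22.9% of all tiles, and levels near 100% could not meet the rule. They made up 4.59% of tiles at 20% to 40%, 5.23% at 40% to 60% and 1.44% at 60% to 80%. Only 19 (3.31%) had 10 or more CpGs, against 20.1% of all tiles. Among tiles of 20% to 80%, however, the share chosen was 2.95% at 3 CpGs, 3.28% at 4 and 2.52% at 10 to 19, so CpG number differed little once the level was matched. By chromosome the share ran from 0.457% on chromosome 14 to 1.09% on chromosome 11.

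Most tiles beside a chosen one did not meet the rule. Of 120 measured tiles directly beside a chosen tile, 21 (17.5%) were chosen themselves, against 0.78% of all tiles and 2.93% of tiles with a virgin stem level of 20% to 80%. The other 99 had a median pregnant minus virgin stem difference of 0.143 points, against -0.216 for all tiles and -2.01 for tiles of 20% to 80%. In tiles of 500 bp the neighbours' median was 3.601 points. Of the 99, 23.2% had all pregnant above all virgin libraries, against 8.08% of all tiles and 13.7% of tiles of 20% to 80%. From the second tile outward this share was 6.17% to 16.8%. There were 10 runs of adjacent chosen tiles, 9 of 2 tiles and 1 of 3 at chr5:144048001-144051000.

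Few chosen tiles lay close to a placed gene start. From 32851 promoter sequences, 7535 starts of 6747 genes were placed, so many starts are missing and distances are to placed starts only. Of the tiles, 561 were on chromosomes with placed starts. Of these, 19 (3.39%) lay within 2 kb of one, against 14.0% of all tiles, 3.15% of tiles with a virgin stem level of 20% to 80% and 2.16% of losing tiles. Within 10 kb there were 64 (11.4%, against 10.8% of tiles of 20% to 80%). The chosen tiles thus lay about as near to placed starts as other tiles of middle level. A placed start does not show which gene a tile belongs to, and exons, introns and UTRs are not stated because no mm9 annotation was used here.

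Of the 19 neighbouring promoter windows, 17 had measured CpGs. In 15 of these the mean stem level was below 10% in both virgin and pregnant libraries, with medians over the 17 of 0.277% and 0%. The exceptions were Spag16, whose window lies inside its chosen tile, and Alpk3. Placing needed at least 6 CpGs in a window, so promoters poor in CpGs are missing here. Epb41 encodes a protein of the membrane skeleton. Its promoter window stayed between 0% and 0.437% in all libraries, while the tile 773 bases upstream, chr4:131632001-131633000, went from 11.9% at week 3 and 9.24% at week 9 in virgin stem cells to 29.9%, 32.8% and 31.3% on days 10, 16 and 19 of pregnancy. In the retired stem library it was 10.8%, back within the virgin range. Aqp5 is a water channel of glandular epithelia. Its window stayed at or below 0.969%, while the tile 1.54 kb downstream, chr15:99423001-99424000, went from 53.9% at week 3 and 48.1% at week 9 to 71.8%, 69.2% and 72.4% on days 10, 16 and 19, with 73.04% in the retired library.

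Beside Shoc2, a scaffold of Ras signalling, chr19:54020001-54021000 had 9.69% at week 3 and 4.5% at week 9 in virgins, 38.8%, 24.6% and 30.3% on days 10, 16 and 19 of pregnancy and 34.2% in the retired library. Beside Map2k3, a kinase that activates p38, chr11:60747001-60748000 had 13.1% at week 3 and 18.1% at week 9, 32.4%, 32.8% and 38.6% on days 10, 16 and 19 and 47.7%. In both, pregnant mature libraries were lower than virgin ones without overlap, with 11.1% at week 3 and 12.4% at week 9 and 7.41%, 0% and 4.1% on days 10, 16 and 19 at the former and 14.3% at week 3 and 30.03% at week 9 and 8.91%, 8.93% and 7.93% on days 10, 16 and 19 at the latter. Near Cdc42ep1, an effector of the GTPase Cdc42, chr15:78674001-78675000 went from 26.7% at week 3 and 24.6% at week 9 to 39.3%, 43.9% and 44.5% on days 10, 16 and 19 and was 30% in the retired library.

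At Fam83g, whose protein binds casein kinases, chr11:61498001-61499000 went from 10.1% at week 3 and 13.8% at week 9 in virgin stem cells to 24.4%, 28.7% and 24.6% on days 10, 16 and 19 of pregnancy, and retired stem cells were higher still at 38.98%. The Alpk3 tile, chr7:88203001-88204000, went from 27.8% at week 3 and 22.3% at week 9 to 65.8%, 68.4% and 56.6% on days 10, 16 and 19, with 37.2% in the retired library and 3.57% to 42.2% in the 12 others. The Spag16 tile had 14.8% at week 3 and 13.7% at week 9 in virgins, 34.3%, 32.02% and 25.1% on days 10, 16 and 19 of pregnancy and 23.9% in the retired library, so its step was among the smaller ones. Tiles near Gm52706, Lyzl4, Tmcc2, Nudt4, Snx21 and Kctd2 had steps of 26.6, 27.5, 22.8, 15.7, 32.1 and 31.4 points.

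Genes of mammary lineages and of signalling were covered only in part. Placed were 4 of 20 basal and stem cell genes, 5 of 22 luminal and hormone genes, 4 of 5 cell cycle inhibitors, 13 of 29 genes of the Wnt, Notch, Hedgehog and TGF-beta pathways and 1 of 4 retinoic acid receptors. Of these placed genes, 1 (Cdkn1a) had a chosen tile within 10 kb. Cdkn1a encodes p21, an inhibitor of the cell cycle, and the tile chr17:29221001-29222000 lies 8.71 kb upstream of its start. Stem levels there were 41.1% at week 3 and 50.5% at week 9 in virgins and 68%, 67.3% and 68.8% on days 10, 16 and 19 of pregnancy, with 48.8% in the retired library, inside the virgin range. Progenitor values were 60.3% at week 3 and 59.7% at week 9 and 50.4%, 59.5% and 49.02% on days 10, 16 and 19, lower in pregnancy without overlap but by 7.04 points on average. The promoter windows of the placed genes that had measured CpGs, Cdkn1a included, did not exceed 6.98% in any library. These windows too had to hold enough CpGs to be placed, so promoters poor in CpGs are not covered.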

How the data were processed

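Libraries were made by reduced representation bisulfite sequencing: MspI cuts the DNA at CCGG and bisulfite converts unmethylated cytosine, per the labels' protocols. The files the authors deposited list methylated over total read counts per CpG on build mm9, per the submitters' processing notes. In 7 files a deposited score equals 1000 times the methylated share within 0.5 and served only as a check. The aligner, caller and duplicate handling were not given in the sources used here. The members and lists were chosen with earlier results of these data known.

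CpGs with 5 reads in all 18 libraries (678767 of 1485193 CpGs) were summed per 1 kb tile with at least 3 CpGs. The quasi-binomial logistic regression used moderated dispersion held at 1 or above, an F test and p-values adjusted by Benjamini-Hochberg across 73632 tiles; a call needed an adjusted p under 0.05 and 10 points. It used the 12 progenitor and mature libraries, with groups of cell type by state, with cell type plus state, or with cell type plus stage. Means over CpGs share reads from PCR without molecular identifiers, so intervals cover counting error only.

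On simulated counts with these depths and 200 changed tiles, the test recovered 10% of 20-point and 82% of 40-point changes for pregnancy in progenitor, 23% and 97% in mature and 75% and 100% in both together. For retirement it recovered 3% and 49%, and for progenitor against mature 62% and 100%. Each unchanged tile had its own level, the same in all libraries, and the spread between libraries was a fixed setting, not fitted to these data. The chosen tiles had a median SD of 10.2 points over the 12 libraries, so recovery at them may be lower.

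A promoter was placed on mm9 where every deposited CpG of a 300-base window fell on a CpG of its RefSeq sequence, in 1 place only, and kept if chromosome and strand matched the gene's. With at least 6 CpGs 93.7% of 5553 placings fell on the gene's chromosome, and with at least 8 CpGs 99.7% of 6887. Both sets together, used for naming (an addition after seeing the data), kept the reference order at 99.8% of 7505 neighbouring pairs. A few placings may still be wrong.

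Named were the 8 tiles with the widest gap, the 5 largest non-overlapping differences in each direction in progenitor and in mature cells (lower in the closing section), the 3 highest and 3 lowest retired stem levels, the 4 tiles with most CpGs, the 3 on each side of the gap, 15 nearest to starts and those within 10 kb of listed genes. Not every such tile is described, and none on chromosome 18 is. Reading a left-out stem library at tiles chosen without it, and the shares at a middle level, were added after seeing the data. Alternatives are listed in the closing section. Python 3.11.15, numpy 2.4.6, scipy 1.17.1, pandas 2.3.3, R 4.3.3 and limma 3.58.1 were used.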

Additional observations from a re-analysis of the deposited data

Results flagged for a closer look

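At some of the named tiles every pregnant stem library lay above both virgin ones while every pregnant library of another cell type lay below its virgin ones. The difference between the cell types was not tested at any of them, and the stem side follows from the choice of tiles. The stem change (pregnant minus virgin mean) exceeded the progenitor change by 52.7 points at chr4:11311001-11312000, 42.7 points at chr5:112234001-112235000, 49.3 points at chr6:127792001-127793000 and 37.3 points at chr7:77503001-77504000. For the others against progenitor cells the excess was 37.5 points at chr3:75459001-75460000, 42.4 points at chr19:58194001-58195000, 26.9 points at chr13:48387001-48388000, 22.6 points at chr11:120032001-120033000 and 29.3 points at chr17:29221001-29222000. The last of these is the tile upstream of Cdkn1a.

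Against mature cells the stem change was larger by 40.1 points at chr5:112234001-112235000, 62.9 points at chr19:58194001-58195000, 45.6 points at chr1:155593001-155594000 and 45.7 points at chr9:40590001-40591000. It was larger by 40.1 points at chr14:56054001-56055000, 59.7 points at chr15:97240001-97241000, 38.3 points at chr8:111237001-111238000, 32.1 points at chr19:54020001-54021000 and 32.6 points at chr11:60747001-60748000. The last 3 of these lie near Zfhx3, Shoc2 and Map2k3. At chr6:127792001-127793000 the differences in progenitor and mature cells themselves had opposite signs, with a progenitor minus mature difference of -31.1 points (-16.6 in progenitor and 14.5 in mature cells), which was not tested either. Without week 9 virgin mature the last value was -39.7, and the excess over mature cells ran from 24.7 to 60.6 points at the other tiles.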

How the results depend on the processing

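Of 211 alternative values for 16 results, 187 stayed close and 24 moved. Close means within 1.5 times for a count, within the exact 95% interval for the share of the retired stem library, and for a median within the SD between libraries (3.89 points in the progenitor and mature tests), so a median near 0 may change sign and still count as close. The progenitor and the mature median each changed sign in 1 of 17 alternatives, the retired median in 1 of 17 and the progenitor minus mature median in 7 of 18. Many of these alternatives could not move a median. Another test, no minimum difference or leaving out a library outside the comparison leaves the differences unchanged. Such values count among the 187 close ones without showing stability. The 574 tiles became 257 with a minimum of 10 reads per CpG, 122 with a gap of 20 points and 153 with at least 5 CpGs. Leaving out 1 stem library gave 749 to 1886 tiles, with 1886 without week 3 virgin, 1154 without week 9 virgin and 1215 without day 19. With reads thinned to the shallowest library at each CpG, an alternative chosen after seeing the data, 734 tiles were kept, 355 of them among the 574. With 10 reads the retired stem library was nearer the pregnant mean at 84.8% of tiles, and the same rule kept 19 progenitor and 4 mature tiles. Without 1 library, also chosen after seeing the data, that rule kept 206 to 630 progenitor and 31 to 1057 mature tiles. In tiles of 500 bp the neighbours' median difference was 3.601 points. Tiles within 2 kb of a gene start numbered 12 with starts placed by 6 or more CpGs and 19 with 8 or more, or with either. The retired minus virgin median was -10.7 without retired progenitor and 2.11 without retired mature. No alternative called any of the 574 tiles in a test; the smallest adjusted p among them was 0.0834, without week 3 virgin mature, where 8 tiles of all were called. No paired analysis was possible because the stages of virgin and pregnant libraries differ and carry no shared replicate number; progenitor and mature cells were compared within stages. With 10 to 70 reads per CpG, and 1 retired library per cell type, small differences could not be detected.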

Other observations

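Some further tiles are given as values only; they were chosen after their values were seen. A tile 10.4 kb downstream of the start of Tet2, an enzyme that oxidises methylated cytosine, lies at chr3:133196001-133197000. Its stem levels were 12.2% at week 3 and 16.02% at week 9 in virgins, 26.7%, 43.1% and 28.6% on days 10, 16 and 19 of pregnancy and 33.7% in the retired library, and the 12 progenitor and mature libraries had a mean of 12.4%. At chr16:92689001-92690000, 7.57 kb downstream of a start of Runx1, a transcription factor, stem levels were 79.4% at week 3 and 69.7% at week 9 in virgins, 92.3%, 95.1% and 91.6% on days 10, 16 and 19 of pregnancy and 87.1% in the retired library, beside a mean of 85.1% in the others.

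The run of 3 adjacent tiles at chr5:144048001-144051000 held tiles of different level. The first, with 4 CpGs, had 74.1% at week 3 and 72.3% at week 9 in virgins, 91.8%, 86.1% and 88.5% on days 10, 16 and 19 of pregnancy and 78.6% in the retired library. The second, with 18 CpGs, had 19.5% at week 3 and 16.01% at week 9 in virgins, 50.6%, 51.3% and 43.8% on days 10, 16 and 19 of pregnancy and 45.8% in the retired library. The last, with 6 CpGs, had 21.7% at week 3 and 18.7% at week 9 in virgins, 50%, 51.3% and 37.1% on days 10, 16 and 19 of pregnancy and 43.8% in the retired library. Around a start of Trak1, which encodes an adaptor of mitochondrial transport, 2 adjacent tiles 2.38 kb and 3.38 kb downstream had 36.5% at week 3 and 20.7% at week 9 in virgins, 51.1%, 60.2% and 50% on days 10, 16 and 19 of pregnancy and 46.5% in the retired library, and 36.5% at week 3 and 25.1% at week 9 in virgins, 65.5%, 63.3% and 65.7% on days 10, 16 and 19 of pregnancy and 56.9% in the retired library.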
